A study of Homo sapiens with 26 samples.

Results

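The genes described here are 9 genes of the MHC class I antigen presentation pathway: HLA-B, HLA-C and HLA-E, B2M, TAP1, TAP2, TAPBP, PSMB8 and PSMB9. They were taken by symbol from 26485 gene symbols, and were chosen with earlier results of these data known. All 9 were present in each of the 5 deposited tables and passed the filter on low values in every comparison. mRNA-seq had been performed in 26 libraries of KYSE180, TE6 and KYSE150, which are 3 lines from human esophageal squamous cell carcinomas (ESCC), and the libraries fall into 11 groups. KYSE180 cells received a control siRNA (siCont) or siRNA against BRDT (siBRDT), with 3 libraries each. A separate KYSE180 experiment used siCont or siRNA against TP63 (siTP63), with 2 libraries each. The study lists different siRNAs for each target, and which of them the libraries received was not given in the sources used here. TE6 cells received siCont, siBRDT or siTP63, with 2 libraries each, so that both TE6 comparisons share their control libraries. KYSE150 cells received siCont or siTP63, with 2 libraries each. In a further experiment they received a BRDT plasmid (BRDT-OE) or an empty control vector, with 3 libraries each. The plasmids were introduced by electroporation and the siRNAs with Lipofectamine. The control vector and the BRDT plasmid came from different sources, and whether they share a backbone was not given. Knockdown cells were harvested after 48 h, and the time of overexpression was not given in the sources used here. BRDT is a BET bromodomain gene normally expressed in male germ cells, and TP63 encodes the p63 transcription factor of squamous epithelium. All groups are cultured lines, and no source says whether the libraries of a group came from separate cultures, so the p-values measure the spread between these libraries, which may be technical.

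Class I molecules show peptides from inside the cell to CD8 T cells. The proteasome cuts proteins into peptides, the TAP1 and TAP2 transporter carries them into the endoplasmic reticulum, and tapasin (TAPBP) helps load them onto a heavy chain (HLA-B, HLA-C, HLA-E) that is paired with beta-2-microglobulin (B2M). PSMB8 and PSMB9 are catalytic subunits of the immunoproteasome, in which they take the place of PSMB5 and PSMB6. Interferon, acting through STAT and IRF proteins, and the regulator NLRC5 are known to raise these genes, and loss of class I expression is a known feature of squamous carcinomas. Of the 9 genes, 8 lie in the MHC region on chromosome 6 (hg38, GENCODE release 44), and B2M lies on chromosome 15 at 44711358 to 44718851. HLA-E is at 30489509 to 30494194, HLA-C at 31268749 to 31272130 and HLA-B at 31353872 to 31367067.

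Promoter windows are printed because members that moved together in several comparisons can be compared in them with TAP2, which was called in none. RefSeq windows (GRCh38.p14, 250 bases before to 50 after a start site, printed 5′ to 3′ on the gene's own strand) were found for 8 of the 9 genes, in 10 windows. HLA-E was not matched. Capitals mark AANNGAAA, the core that IRF proteins are known to recognise, searched on both strands, so that some matches read as its reverse complement. The core was present in 7 windows, 1 for each of 7 genes, against 22.8% of 35116 promoter windows of the same length. The longer motif GAAA, any 2 bases, GAAA is known as the core of the interferon-stimulated response element and overlaps the first motif. It was present in 1 window each of 5 genes (B2M, TAP1, TAP2, TAPBP and PSMB8), against 3.57% of all windows. A further motif, TTCNNNGAA, was present in 1 window each of 2 genes (TAP1 and PSMB8), against 7.66% of all windows. These matches describe letters and not sites of binding.
HLA-B, chr6:31357130-31357429, minus strand: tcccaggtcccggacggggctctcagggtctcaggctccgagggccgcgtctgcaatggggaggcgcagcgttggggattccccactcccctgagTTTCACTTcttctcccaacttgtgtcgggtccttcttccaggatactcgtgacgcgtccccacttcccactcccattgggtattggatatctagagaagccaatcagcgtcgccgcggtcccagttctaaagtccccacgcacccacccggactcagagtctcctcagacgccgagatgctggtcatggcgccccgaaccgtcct
B2M, chr15:44711267-44711566, plus strand: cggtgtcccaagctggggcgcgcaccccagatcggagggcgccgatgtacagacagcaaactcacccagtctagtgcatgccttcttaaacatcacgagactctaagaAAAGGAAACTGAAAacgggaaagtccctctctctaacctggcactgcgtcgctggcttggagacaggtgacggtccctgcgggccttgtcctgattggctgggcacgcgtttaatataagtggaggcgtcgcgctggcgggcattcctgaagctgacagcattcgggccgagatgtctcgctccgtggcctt
TAP1, chr6:32853655-32853954, minus strand: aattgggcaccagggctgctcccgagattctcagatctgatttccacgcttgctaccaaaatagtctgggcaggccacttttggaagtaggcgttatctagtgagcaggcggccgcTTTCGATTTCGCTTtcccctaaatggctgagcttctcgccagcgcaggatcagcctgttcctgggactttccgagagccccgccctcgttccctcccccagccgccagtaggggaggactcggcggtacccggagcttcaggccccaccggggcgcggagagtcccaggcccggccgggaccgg
TAP2, chr6:32838690-32838989, minus strand: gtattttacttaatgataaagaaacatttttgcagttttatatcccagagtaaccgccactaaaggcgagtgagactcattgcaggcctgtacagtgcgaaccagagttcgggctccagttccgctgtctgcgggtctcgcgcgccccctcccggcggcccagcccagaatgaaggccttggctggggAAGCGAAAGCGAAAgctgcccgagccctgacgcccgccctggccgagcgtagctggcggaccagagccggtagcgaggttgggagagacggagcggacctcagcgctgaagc
TAPBP, chr6:33314029-33314328, minus strand: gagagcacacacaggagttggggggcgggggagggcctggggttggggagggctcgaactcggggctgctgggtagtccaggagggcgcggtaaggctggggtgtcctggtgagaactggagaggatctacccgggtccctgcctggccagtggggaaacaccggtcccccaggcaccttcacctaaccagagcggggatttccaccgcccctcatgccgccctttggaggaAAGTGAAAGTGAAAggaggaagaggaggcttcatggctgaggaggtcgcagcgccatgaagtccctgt
PSMB8, chr6:32843998-32844297, minus strand: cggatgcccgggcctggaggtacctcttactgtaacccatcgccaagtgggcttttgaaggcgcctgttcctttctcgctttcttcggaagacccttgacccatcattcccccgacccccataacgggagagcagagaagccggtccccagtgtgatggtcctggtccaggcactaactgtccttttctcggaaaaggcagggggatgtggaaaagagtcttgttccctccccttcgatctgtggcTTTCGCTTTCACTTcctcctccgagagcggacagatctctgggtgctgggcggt
PSMB9, chr6:32853942-32854241, plus strand: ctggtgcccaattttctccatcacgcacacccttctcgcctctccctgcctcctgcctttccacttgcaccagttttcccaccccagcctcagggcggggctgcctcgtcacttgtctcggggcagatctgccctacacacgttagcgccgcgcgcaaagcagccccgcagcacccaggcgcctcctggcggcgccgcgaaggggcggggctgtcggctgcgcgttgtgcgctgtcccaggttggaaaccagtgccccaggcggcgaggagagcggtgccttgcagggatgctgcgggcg
HLA-B holds a single core, and B2M, TAP1, TAP2, TAPBP and this start site of PSMB8 hold the core in pairs of overlapping matches. PSMB9 holds none in its window. TAP1 and PSMB9 are transcribed away from each other, with start sites 488 bases apart, and their windows share 13 bases. The TAP1 pair lies between these start sites, 134 and 128 bases before that of TAP1, and outside the PSMB9 window. The other windows of TAP1 and PSMB8, which are not printed, held no core. TAP2, which lay on the other side of its controls from TAP1 in 3 of the comparisons that follow, has a pair of matches, as B2M and TAPBP do.

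The libraries held 7582089 to 19372441 reads, and 3 reads, the limit that a count of 0 allows by counting error alone, equalled 0.155 to 0.396 RPM (reads divided by the library total and put on a common scale). Every value of the 9 genes rested on at least 50 reads. In 1 library, TE6 siBRDT replicate 1, 5490 of the 26485 genes were at 0, against 7513 to 11171 in the other 25, so the siBRDT results of TE6 are also given without it. The targeted genes were examined first. BRDT values were 1017, 1043 and 1136 with siCont and 132, 147 and 198 with siBRDT in KYSE180, 241 and 242 and 55.0 and 46.6 in TE6, and 8.13, 16.0 and 6.58 and 15871, 15927 and 17542 in the control and BRDT-OE libraries of KYSE150. TP63 values were 2573 and 3035 with siCont and 794 and 925 with siTP63 in KYSE180, 2596 and 2785 and 133 and 112 in TE6, and 695 and 729 and 170.4 and 114 in KYSE150. All these groups were separate in the labelled direction. TP63 also fell with siBRDT, with a log2 fold change of -0.58 in KYSE180 and -1.15 in TE6. Each of the 12 squamous epithelial markers had reads in every group. Of 12 leukocyte markers, at most 3 reached 10 reads in any library of a group, and their summed level ranged from 0.291 to 7.0 RPM, against 1006 to 10588 for the squamous markers. In bulk RNA, fewer cells expressing a gene and less RNA per cell cannot be told apart.

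In the control libraries the order of the 9 genes was examined per transcript length, in RPM per kilobase. B2M was the highest in all 5 control groups, at 811 ± 42.1 and 559.9 ± 135 (SD) in the KYSE180 BRDT and TP63 experiments, 624 ± 38.9 in TE6, and 215 ± 17.2 and 283 ± 43.2 in the KYSE150 TP63 and overexpression experiments. The heavy chains came next in KYSE180 and TE6. HLA-B stood apart between lines, at 160.1 ± 8.49 and 103 ± 13.6 in KYSE180 and 215 ± 13.9 in TE6 but 19.6 ± 2.25 and 21.0 ± 2.42 in KYSE150. In KYSE150 HLA-B thus lay below PSMB8 and far below HLA-C, which was 85.5 ± 10.1 and 79.2 ± 7.18. Neighbours whose libraries overlapped were HLA-E and HLA-B in TE6, HLA-E and HLA-C, HLA-B and PSMB9, and TAP2, TAPBP and TAP1 in the KYSE150 siCont libraries, and TAP1, HLA-B, TAPBP, TAP2 and PSMB9 in the KYSE150 vector libraries. In KYSE180, PSMB9 and TAP2 overlapped in the BRDT experiment, and TAPBP and TAP2 in the TP63 experiment. The controls of the KYSE180 experiments were themselves unlike, with TAPBP at 56.6 ± 3.34 in the first and 20.7 ± 3.18 in the second, and TAP1 at 30.1 ± 1.5 and 11.5 ± 0.638. Those of KYSE150 were unlike too for some genes. HLA-E was 85.8 ± 9.08 with siCont and 152 ± 14.8 with the vector, and TAP1 8.92 ± 1.27 and 21.6 ± 1.23. HLA-B and HLA-C were close between these KYSE150 controls. HLA genes are polymorphic and nearly identical in parts, so reads may have been lost or exchanged between them, and their levels are uncertain between lines.

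**Figure D1:**
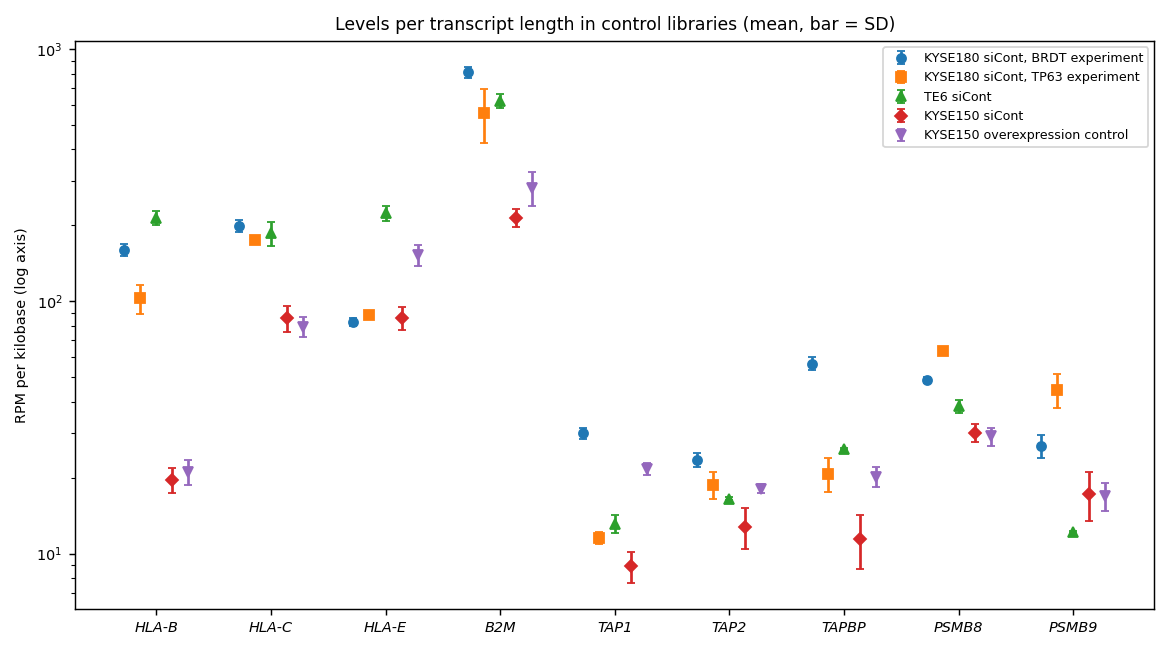
Mean level of each gene per transcript length (vertical log axis, RPM per kilobase) in the 5 control groups, with bars for the SD of 2 or 3 libraries. B2M is highest in every group, and HLA-B in the KYSE150 controls (19.6 and 21.0) lies far below its level in KYSE180 and TE6.

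In order to see how the pathway responded, treated and control libraries were compared within each table. A gene was called when its adjusted p-value was under 0.05 and its log2 fold change was at least 0.5 in size. With siBRDT in KYSE180, 3 of the 9 genes fell (HLA-B, B2M and HLA-C) and none rose, where 15.8% of all tested genes fell and 14.5% rose. siBRDT in TE6 gave 1 rise (B2M), with 15.6% of all tested genes called up and 18.1% called down, and without siBRDT replicate 1 none of the 9 was called, with 16% and 19.5% of all. After siTP63 in KYSE180, 4 genes rose (TAP1, B2M, HLA-B and TAPBP), with 23.6% of all tested genes called up and 25.7% called down. In TE6, 5 genes rose with siTP63 (PSMB9, PSMB8, HLA-C, B2M and TAPBP), with 18.3% of all tested genes called up and 20.6% called down. BRDT-OE in KYSE150 lowered 8 of the 9, all but TAP2, where 16% of all tested genes fell and 10.5% rose. With siTP63 in KYSE150, none of the 9 was called by limma or edgeR, in a comparison where limma called 0% of all tested genes in either direction. DESeq2 called 1 of the 9 up there, and over all genes 202 up (1.64%) and 259 down (2.1%). At an unadjusted p under 0.05 limma gave 4 of the 9 and 2194 of all 12335 genes tested. With no fold limit, 6 of the 9 passed as lower with siBRDT in KYSE180 (29.8% of all genes) and 4 as higher with siBRDT in TE6 (21.9%), while TAP2 alone passed as lower with siTP63 in KYSE180 (31%) and as higher with BRDT-OE (26.1%).

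The median log2 fold change of the 9 genes was -0.40 for siBRDT in KYSE180, 0.26 for siBRDT in TE6, 0.36 for siTP63 in KYSE180, 0.52 for siTP63 in TE6, 0.53 for siTP63 in KYSE150 and -0.85 for BRDT-OE. The median over all tested genes was -0.0052, -0.039, 0.00064, -0.011, -0.0077 and 0.017 in the same order. Without siBRDT replicate 1 the median of the 9 genes for siBRDT in TE6 was 0.25, with single values from -0.12 (TAPBP) to 0.46 (B2M). The 9 genes were thus lower in their median with siBRDT in KYSE180 and with BRDT-OE in KYSE150, and higher in the other 4 comparisons.

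**Figure D2:**
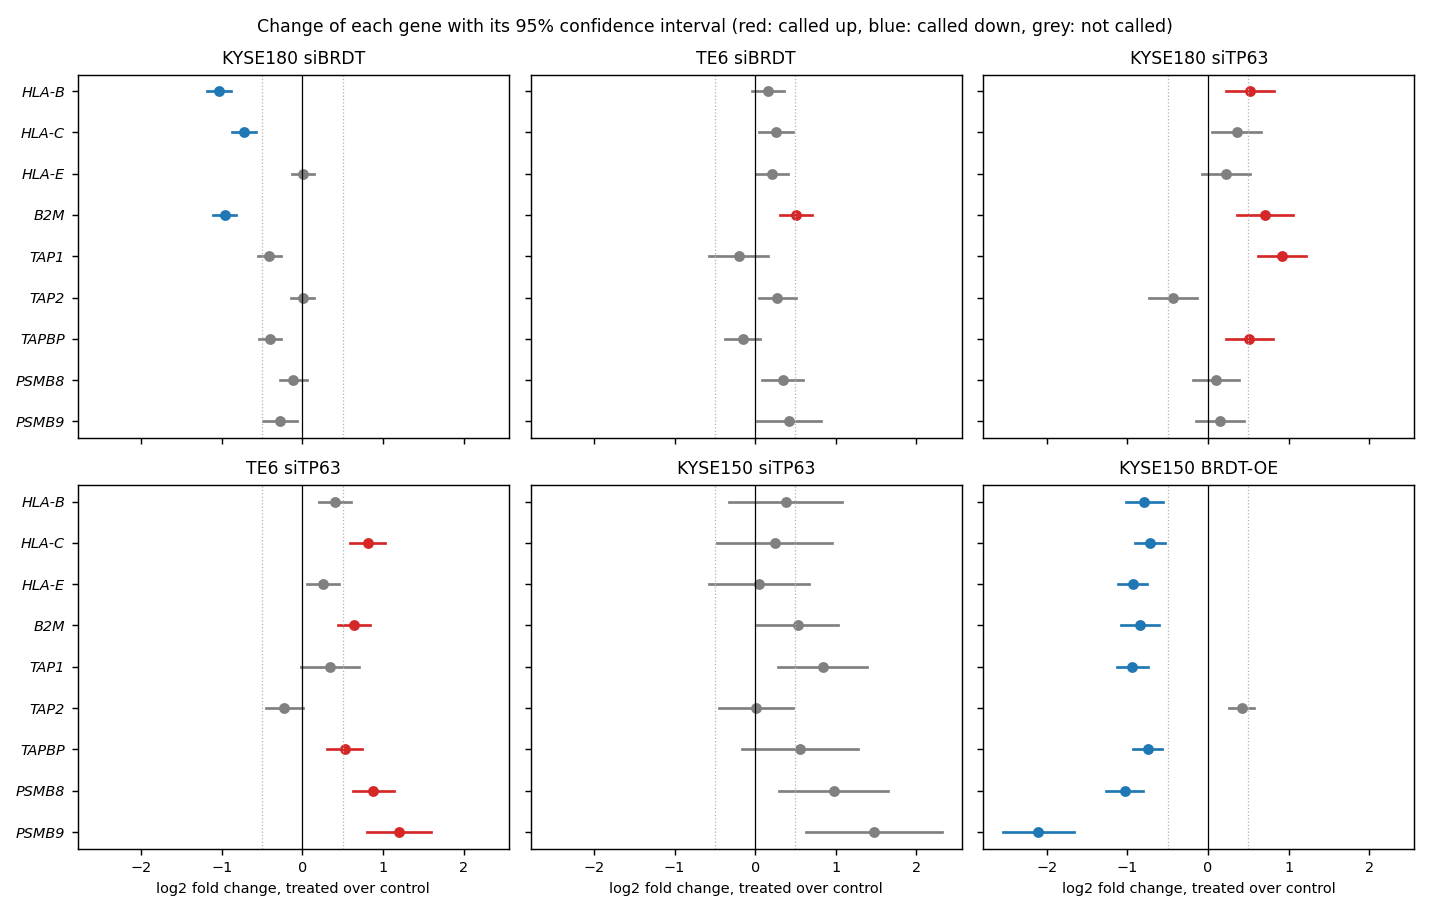
Log2 fold change of each gene (horizontal axis, treated over control) in the 6 comparisons, with 95% confidence intervals from limma. Dotted lines mark 0.5 in either direction, red and blue points were called up and down, and grey points were not called. BRDT-OE has 8 blue points, and TAP2 lies apart from the other 8 there.

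The heavy chains HLA-B and HLA-C fell with siBRDT in KYSE180, and all 3 heavy chains fell with BRDT-OE in KYSE150. HLA-B, a classical heavy chain, had values of 2854, 2583 and 2751 with siCont and 1448, 1322 and 1231 with siBRDT in KYSE180. Every siBRDT library was far below every siCont library, and the log2 fold change was -1.03 (95% interval -1.19 to -0.88, adjusted p = 1.7e-08). In TE6 the values were 3899.7 and 3536 with siCont and 4255 and 4062 with siBRDT, which do not overlap, but the log2 fold change of 0.16 did not pass the test (adjusted p = 0.17).

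With siTP63, HLA-B was 2480.5 and 2863 in siCont and 4115 and 3548 in siTP63 libraries of KYSE180, and 4940.3 and 4926 in siTP63 libraries of TE6. HLA-B rose in KYSE180 by 0.52 on the log2 scale (adjusted p = 0.0038), while in TE6 its change of 0.41 (adjusted p = 0.0026) was under the fold limit. In KYSE150 the siTP63 values 510.2 and 756 overlapped the siCont values 558 and 409. The KYSE180 call was lost without siCont replicate 1 (0.42, adjusted p = 0.031) and without siTP63 replicate 1 (0.41, adjusted p = 0.087). With BRDT-OE, HLA-B fell from 533, 422 and 493 to 283, 279.9 and 269, a log2 fold change of -0.79 (adjusted p = 1.5e-04).

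HLA-C, the other classical heavy chain described here, was 3642, 3369 and 3229.5 with siCont and 2109, 2188 and 1892 with siBRDT in KYSE180. It fell by a smaller amount than HLA-B, with a log2 fold change of -0.73 (95% interval -0.88 to -0.58, adjusted p = 6.0e-07). In TE6 HLA-C was 3509 and 2988 with siCont, 3913 and 3844 with siBRDT and 5614 and 5732 with siTP63. Both TE6 knockdowns lay above siCont, by 0.26 with siBRDT (adjusted p = 0.046, under the fold limit) and by 0.81 with siTP63 (adjusted p = 3.1e-05), which was called. The siTP63 change in KYSE180 was 0.36 (adjusted p = 0.041), under the fold limit, and in KYSE150 0.24 with overlapping groups. BRDT-OE lowered HLA-C from 1904, 1616 and 1951 to 1105, 1061 and 1149, a log2 fold change of -0.72 (adjusted p = 8.5e-05).

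HLA-E, a non-classical heavy chain recognised by natural killer cell receptors, did not follow HLA-B and HLA-C in KYSE180. Its values were 2440.3, 2302 and 2271 with siCont and 2407, 2435 and 2218 with siBRDT, which overlap, and the log2 fold change was 0.0089 (95% interval -0.13 to 0.14). The siTP63 changes were 0.22 in KYSE180 (adjusted p = 0.2), 0.25 in TE6 (adjusted p = 0.036, under the fold limit) and 0.044 in KYSE150 (95% interval -0.58 to 0.67). siBRDT in TE6 gave 0.21 (adjusted p = 0.082). Only BRDT-OE changed HLA-E past the threshold among the 6 comparisons, from 6341, 5209 and 5851 to 3093, 3011 and 2973, a log2 fold change of -0.93 (adjusted p = 1.4e-05).

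B2M, the light chain shared by all class I heavy chains, was called in 5 of the 6 comparisons. In KYSE180 the values were 9021, 8341 and 8102 with siCont and 4739, 4185 and 4131 with siBRDT. Every siBRDT library was lower than every siCont library, and the log2 fold change was -0.97 (95% interval -1.11 to -0.82, adjusted p = 2.6e-08). In the TP63 experiment of KYSE180 B2M was 7579.9 and 10238 with siCont and 14158 and 14595 with siTP63, a rise of 0.71 (adjusted p = 0.001). The siCont libraries there were themselves far apart, and without siCont replicate 1 the value was 0.49 (adjusted p = 0.051), no longer called. siBRDT and siTP63 therefore gave changes of opposite sign in KYSE180, each against its own siCont libraries, and the difference between them was not tested.

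In TE6 B2M was 6368 and 6911 with siCont, 9676 and 9137 with siBRDT and 10817 and 9908 with siTP63. Both knockdowns raised B2M, by 0.50 with siBRDT (adjusted p = 8.2e-04) and by 0.64 with siTP63 (adjusted p = 1.1e-04). The siBRDT rise lay at the fold limit and was under it without siCont replicate 1 (0.44) or without siBRDT replicate 1 (0.46). In KYSE150, B2M was 3277 and 3164 with siCont and 4499 and 4786 with siTP63, which do not overlap, with a log2 fold change of 0.53 (adjusted p = 0.26). BRDT-OE lowered B2M from 4149.6, 3263 and 4537 to 2167, 2188 and 2219, by -0.85 on the log2 scale (adjusted p = 1.3e-04).

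**Figure D3:**
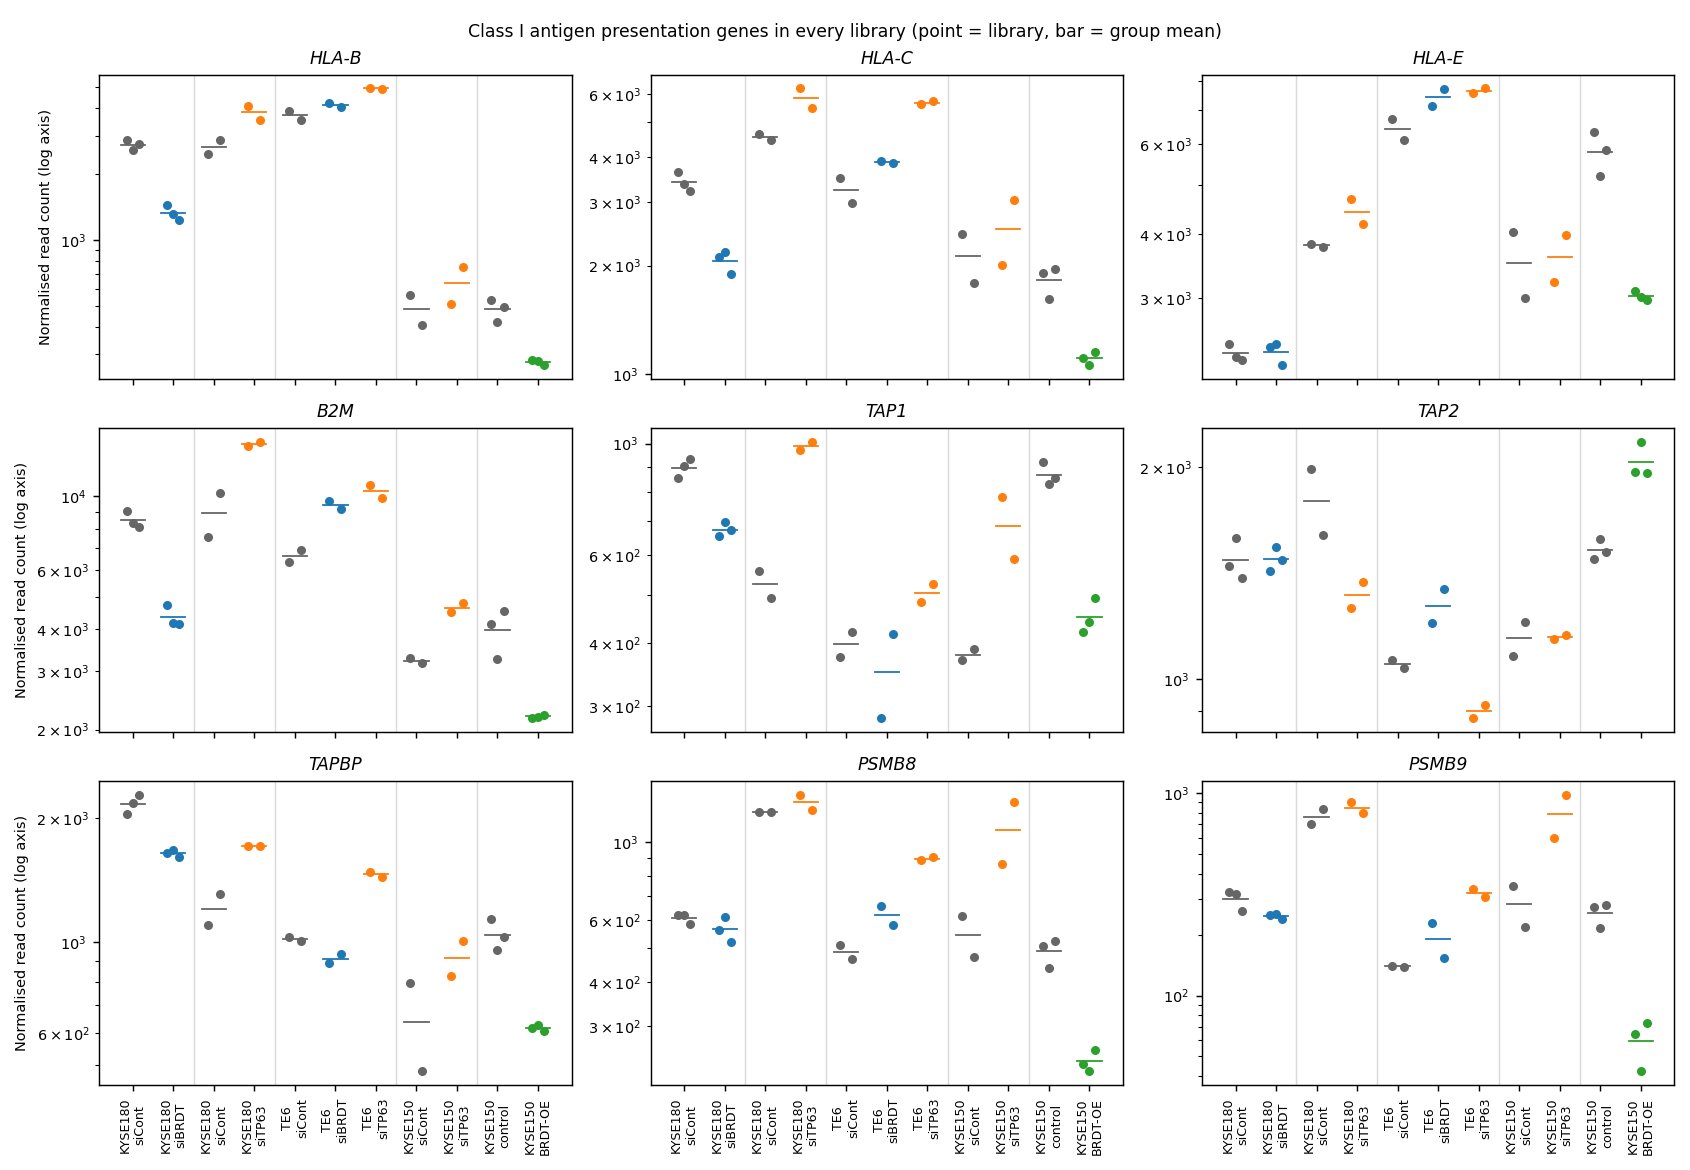
Normalised read count (vertical log axis, its range set for each gene) of the 9 genes in each of the 26 libraries, as points, with group means as bars, in the order of the 5 experiments divided by grey lines. Controls are grey, siBRDT blue, siTP63 orange and BRDT-OE green. The BRDT-OE points lie below their controls for 8 genes and above them for TAP2, and each experiment was normalised on its own, so levels should be read within experiments.

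The transporter subunits TAP1 and TAP2 form 1 heterodimer, yet their transcripts did not move alike. TAP1 was 854, 902 and 932 with siCont and 654, 697 and 672 with siBRDT in KYSE180, separate groups with a log2 fold change of -0.41 (adjusted p = 1.2e-04), under the fold limit. With siTP63 in KYSE180, TAP1 rose from 557 and 493 to 973 and 1009.7, a log2 fold change of 0.92 (95% interval 0.62 to 1.21, adjusted p = 6.1e-06). This was the largest rise among the 9 genes in that comparison, and TAP1 was called in each fit that left out 1 library.

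In TE6 TAP1 was 375 and 421 with siCont, 284 and 418 with siBRDT and 482 and 525 with siTP63, and the siBRDT libraries differed widely from each other. The TE6 changes were -0.21 with siBRDT (adjusted p = 0.33), which turned to 0.072 without siBRDT replicate 1, and 0.34 with siTP63 (adjusted p = 0.11). In KYSE150, siTP63 values of 782 and 588 lay above siCont values of 369.7 and 389.9, with a log2 fold change of 0.84 (adjusted p = 0.16). BRDT-OE lowered TAP1 from 918, 829 and 854 to 421, 441 and 492, by -0.94 (adjusted p = 2.0e-05).

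TAP2 was not called in any of the 6 comparisons, and with BRDT-OE and with siTP63 in KYSE180 and TE6 its treated libraries lay on the other side of their controls from those of TAP1. With BRDT-OE TAP2 was 1479.9, 1579 and 1513 in the vector and 1968, 2176 and 1960.2 in the BRDT-OE libraries, all of them higher, with a log2 fold change of 0.42 (95% interval 0.26 to 0.57, adjusted p = 8.0e-04), under the fold limit. With siTP63 in KYSE180 TAP2 was 1987 and 1599.6 and 1259 and 1375, a log2 fold change of -0.44 (adjusted p = 0.012), also under the limit but past it without siCont replicate 2 (-0.59) or without siTP63 replicate 2 (-0.50). In TE6 TAP2 was 1063 and 1034 with siCont, 1199 and 1342 with siBRDT and 879 and 919 with siTP63, so that the siBRDT libraries lay above and the siTP63 libraries below the controls. Those changes were 0.27 (adjusted p = 0.049) and -0.22 (adjusted p = 0.097). In KYSE180 with siBRDT and in KYSE150 with siTP63 the groups overlapped, with log2 fold changes of 0.0062 (95% interval -0.14 to 0.15) and 0.01 (95% interval -0.45 to 0.47). TAP2 shares bases with another annotated gene on its own strand in GENCODE 44, and how the counting treated such reads was not given in the sources used here.

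TAPBP encodes tapasin, which bridges the transporter and the heavy chain. In KYSE180 TAPBP was 2051, 2177 and 2278 with siCont and 1642, 1674 and 1611 with siBRDT, which gave -0.40 on the log2 scale (adjusted p = 6.4e-05), under the fold limit with separate groups. siTP63 raised TAPBP from 1099 and 1309 to 1711 and 1705 in KYSE180, by 0.51 (adjusted p = 0.0034), and the call was lost without siCont replicate 1 (0.38, adjusted p = 0.032). In TE6, the values 1024 and 1002 with siCont became 1476 and 1439.7 with siTP63, a rise of 0.52 (adjusted p = 8.8e-04), whereas with siBRDT they were 886 and 934, lower than both controls but not past the test (-0.15, adjusted p = 0.23).

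In KYSE150 the siCont libraries of the TP63 experiment disagreed over TAPBP, at 794 and 484, and the siTP63 libraries at 826 and 1005 were both higher (log2 fold change 0.55, 95% interval -0.16 to 1.27, adjusted p = 0.38). BRDT-OE lowered TAPBP from 1137, 955 and 1028 to 616, 628 and 607, with a log2 fold change of -0.75 (adjusted p = 5.5e-05).

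The immunoproteasome subunits gave the largest changes of the 9 genes in TE6 with siTP63 and in KYSE150. PSMB9 fell with BRDT-OE from 273, 216 and 279.5 to 64.5, 42.3 and 73.1, a log2 fold change of -2.10 (95% interval -2.54 to -1.66, adjusted p = 2.3e-05). PSMB8 fell with it, from 506, 438 and 524 to 235, 223 and 257, by -1.03 on the log2 scale (adjusted p = 3.1e-05). The BRDT-OE and vector libraries were separate for both subunits.

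With siTP63 in TE6, PSMB9 rose from 141 and 139 to 335 and 308, a log2 fold change of 1.20 (adjusted p = 1.8e-04). PSMB8 rose from 509.9 and 465 to 886 and 907, with 0.88 (adjusted p = 5.9e-05). In KYSE150 with siTP63 the PSMB9 values 600.0 and 981 stood above the siCont values 347 and 219, and PSMB8 was 864 and 1300.3 against 616 and 472. Those log2 fold changes were 1.47 for PSMB9 (adjusted p = 0.14) and 0.97 for PSMB8 (adjusted p = 0.17). PSMB9 was the member that DESeq2 called there (adjusted p = 0.0038), and limma called it as well without siCont replicate 1 (1.80) or without siTP63 replicate 1 (1.83).

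In KYSE180 the immunoproteasome subunits moved little. With siTP63, PSMB8 was 1213 and 1211 with siCont and 1361 and 1233 with siTP63 (log2 fold change 0.096, 95% interval -0.19 to 0.38), and PSMB9 was 699.9 and 832 and 901 and 794 (0.15, 95% interval -0.15 to 0.45). With siBRDT the log2 fold changes were -0.11 for PSMB8 (adjusted p = 0.24) and -0.28 for PSMB9 (adjusted p = 0.024, under the fold limit). For siBRDT in TE6, PSMB9 was 229 and 153 and PSMB8 656 and 582, with 0.42 (adjusted p = 0.079) and 0.34 (adjusted p = 0.029, under the fold limit). Without siBRDT replicate 2 the PSMB9 value was 0.71 and was called, and without siBRDT replicate 1, the library with the fewest genes at 0, it was 0.13 (adjusted p = 0.53). In GENCODE 44, PSMB9 overlaps TAP1 and PSMB8 on the opposite strand, and PSMB8 overlaps its own antisense gene. The library kit does not mark strand, so reads from shared bases cannot be told apart, and the 3 genes are uncertain to that extent.

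Differences between changes were tested directly as contrasts of log2 fold changes at an adjusted p under 0.05. The contrasts were taken between siTP63 and siBRDT in TE6 and between TE6 and KYSE180 for each target gene. No contrast included KYSE150. In TE6, 7 of the 9 differed between siTP63 and siBRDT, where 39.2% of all tested genes did. The siTP63 change was higher for PSMB9 by 0.78 (adjusted p = 0.0052), TAPBP by 0.68 (adjusted p = 2.3e-04), HLA-C by 0.55 (adjusted p = 9.0e-04), TAP1 by 0.55 (adjusted p = 0.021), PSMB8 by 0.54 (adjusted p = 0.0031) and HLA-B by 0.25 (adjusted p = 0.049). For TAP2 it was lower, by -0.50 (adjusted p = 0.0027). B2M and HLA-E were not shown to differ (0.14 and 0.044, adjusted p = 0.26 and 0.74). HLA-B, TAP1 and PSMB9 lost their calls without siTP63 replicate 1, and HLA-B, TAP1 and PSMB8 lost theirs without siTP63 replicate 2. TAP1 also lost its call without siBRDT replicate 1 (0.27), and HLA-B without either siCont library, with edgeR, with the replicate block, with no filter and with rescaling.

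The siBRDT change was higher in TE6 than in KYSE180 for 5 of the 9 genes, where 41.9% of all tested genes differed in either direction. The differences were 1.47 for B2M, 1.20 for HLA-B, 0.99 for HLA-C, 0.70 for PSMB9 and 0.45 for PSMB8, with adjusted p-values of 1.2e-07, 1.0e-06, 1.2e-05, 0.011 and 0.013. Without TE6 siCont replicate 2 PSMB8 lost its call (0.39, adjusted p = 0.071), as did PSMB9 without TE6 siBRDT replicate 1 (0.41, adjusted p = 0.071). Without that library TAP1 (0.48), TAP2 (0.35) and TAPBP (0.28) passed as well, with adjusted p-values of 0.0064, 0.021 and 0.041. The siTP63 change differed between these lines for 4 genes, where 55% of all tested genes differed. It was higher in TE6 for PSMB9 (1.05, adjusted p = 0.0012), PSMB8 (0.78, adjusted p = 8.0e-04) and HLA-C (0.45, adjusted p = 0.024), and lower for TAP1 (-0.58, adjusted p = 0.035). TAP1 and HLA-C lost this call without TE6 siCont replicate 2, either TE6 siTP63 library or KYSE180 siTP63 replicate 2, and TAP1 also without KYSE180 siCont replicate 2 or siTP63 replicate 1. For HLA-C the call was also lost with edgeR (0.35) and after rescaling (0.34). All contrasts between lines rest on fold changes from separately normalised tables.

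Treated libraries that all lay on 1 side of their controls were counted as well. With siBRDT in KYSE180, 6 of the 9 genes were entirely below siCont, where 31.8% of all tested genes were, and none was entirely above (31% of all). In TE6 siBRDT put 7 above and 1 below, against 34.5% and 37.3% of all tested genes. With siBRDT replicate 2 alone the counts were the same, but the share of all genes was not computed there. A single library lies outside its controls more easily than 2 do. siTP63 put 7 above and 1 below in KYSE180 (39.8% and 40.4% of all), 8 above and 1 below in TE6 (39.8% and 40.7% of all) and 5 above and none below in KYSE150 (24.3% and 24.6% of all). With BRDT-OE, 8 were below and 1 above, against 29.3% and 30.9% of all tested genes. The gene on the opposite side was TAP2 with siTP63 in KYSE180 and TE6 and with BRDT-OE, and TAPBP with siBRDT in TE6.

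In KYSE180 with siTP63 the scale of the table bears on the counts. Rescaling the libraries to equal upper quartiles shifted the all-gene median by 0.17, and all calls went from 3292 up and 3577 down to 4341 up and 2744 down. HLA-C was then called as well (0.53, adjusted p = 0.0019), which made 5 of the 9. Relative to the moved median of all genes, the values were 0.92 for TAP1, 0.71 for B2M, 0.52 for HLA-B, 0.51 for TAPBP, 0.36 for HLA-C and -0.44 for TAP2. With BRDT-OE the same rescaling gave 919 up and 2491 down in place of 1343 and 2043 over all genes, and 8 of the 9 genes were called down under either scaling.

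The rest of the class I pathway was described with a list of 20 further genes, all tested in each comparison. With siBRDT in KYSE180, 0 rose and 7 fell, with 5 up and 6 down for siBRDT in TE6, 7 up and 3 down for siTP63 in KYSE180, 10 up and 1 down for siTP63 in TE6, none called for siTP63 in KYSE150, and 2 up and 8 down with BRDT-OE. Without siBRDT replicate 1, the TE6 counts were 5 up and 4 down. The median log2 fold changes of these 20 genes were -0.095, 0.00051, 0.32, 0.48, 0.38 and -0.40. The shares of all tested genes called stand beside these counts and those of the lists below. They were 14.5% up and 15.8% down for siBRDT in KYSE180, and 15.6% and 18.1% for siBRDT in TE6. For siTP63 they were 23.6% and 25.7% in KYSE180, 18.3% and 20.6% in TE6 and 0% both ways in KYSE150. BRDT-OE gave 10.5% up and 16% down.

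HLA-F, a non-classical heavy chain, fell in KYSE180 with siBRDT (-1.21) and with BRDT-OE (-1.38) and rose in TE6 with siTP63 (0.83). NLRC5, a transactivator of class I genes, fell with siBRDT in KYSE180, with group means of 190.4 ± 11.1 and 117 ± 13.3 and a log2 fold change of -0.70 (adjusted p = 1.1e-04). It rose with siTP63 in that line (1.05, adjusted p = 2.8e-05) and was not called in TE6 with siBRDT (-0.063) or siTP63 (0.41), or with BRDT-OE (-0.30, adjusted p = 0.019). IRF1, a transcription factor that acts on the same promoters, rose in TE6 with siBRDT (1.16) and siTP63 (1.2) and in KYSE180 with siTP63 (1.31), and fell with BRDT-OE (-1.06). In KYSE180 with siBRDT IRF1 was 0.37, which was under the fold limit and on the other side from HLA-B, HLA-C and B2M. IRF2, its relative, fell with siBRDT in KYSE180 (-0.56) and TE6 (-1.20) and with BRDT-OE (-0.70), and rose with siTP63 in KYSE180 (0.96).

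The aminopeptidases that trim peptides in the endoplasmic reticulum were split. ERAP2 fell with siBRDT in both lines (-0.94 in KYSE180 and -0.55 in TE6) and with BRDT-OE (-1.09), and rose with siTP63 in KYSE180 (0.79) and TE6 (0.75). Without siBRDT replicate 1 the ERAP2 change in TE6 was -0.43, under the fold limit. ERAP1 rose with siTP63 in KYSE180 (1.40) and fell with siBRDT in TE6 (-0.62). TAPBPL, the tapasin-related peptide editor, rose with siTP63 in KYSE180 (0.55) and TE6 (0.88) and fell with BRDT-OE (-0.71).

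PSME1 and PSME2, which form the proteasome activator PA28, both rose in TE6, by 0.75 and 0.76 with siBRDT and by 1.01 and 0.87 with siTP63. In KYSE180 with siTP63 PSME2 fell (-0.73) while PSME1 was 0.11 (adjusted p = 0.56), and with BRDT-OE PSME1 fell (-0.70). Among the other listed genes, the largest called changes were those of HLA-G (-0.68) and the oxidoreductase PDIA3 (-0.66) with siBRDT in KYSE180, the chaperone CANX (-0.99) and the aminopeptidase LNPEP (-0.85) with siBRDT in TE6, and RFXANK (-1.14) and RFXAP (0.75), subunits of the RFX complex, with siTP63 in KYSE180. With siTP63 in TE6 they were CANX (-0.96), RFXANK (0.86) and HLA-G (0.63), and with BRDT-OE the activator subunit PSME3 (0.84) and the chaperone CALR (0.64).

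In order to set the immunoproteasome beside the standard proteasome, 14 constitutive subunit genes were examined. With siTP63 in KYSE180, 13 of the 14 fell and none rose, with a median of -1.10. There PSMB5 was -1.35, PSMB6 -1.47 and PSMB7 -0.84, and PSMB10, the third immunoproteasome subunit, fell as well (-1.53), unlike PSMB8 and PSMB9. In the other comparisons 1 rose and 1 fell with siBRDT in KYSE180, 5 rose with siBRDT in TE6, and none was called with siTP63 in TE6 or KYSE150 or with BRDT-OE. PSMB10 rose in TE6 with siBRDT (0.85) and siTP63 (0.66) and was -0.084 with BRDT-OE (adjusted p = 0.58).

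The log2 ratio of normalised read counts, PSMB9 over PSMB6, gives the balance within a library and does not depend on its scaling. It went from -3.98 ± 0.14 (SD, n = 3) in the vector to -6.24 ± 0.41 (SD, n = 3) in the BRDT-OE libraries, and from -4.07 ± 0.26 (SD, n = 2) to -2.46 ± 0.032 (SD, n = 2) with siTP63 in KYSE180. With siTP63 it went from -5.36 ± 0.0048 to -4.28 ± 0.079 in TE6 and from -5.14 ± 0.016 to -3.63 ± 0.11 in KYSE150 (SD, n = 2 each). PSMB8 over PSMB5 moved in the same direction as PSMB9 over PSMB6 in each of these 4 comparisons, for example from -3.91 ± 0.075 to -2.46 ± 0.044 with siTP63 in KYSE180 and from -2.90 ± 0.14 to -4.34 ± 0.12 with BRDT-OE. In all 4 the groups were separate for both ratios, and with 2 or 3 libraries a group no exact test of a single value could pass 0.05. In TE6 with siBRDT these 2 ratios overlapped the controls, and in KYSE180 with siBRDT both were lower than in the controls with no overlap, PSMB9 over PSMB6 going from -3.41 ± 0.044 to -3.57 ± 0.044 (SD, n = 3 each). PSMB10 over PSMB7 did not follow them throughout. It was separate and higher in TE6 with siBRDT, from -1.78 ± 0.17 to -1.07 ± 0.29, and with siTP63, at -1.29 ± 0.087 (SD, n = 2 each), and separate and higher with siBRDT in KYSE180, from -2.45 ± 0.14 to -2.07 ± 0.13 (SD, n = 3 each). With siTP63 it overlapped the controls in KYSE180, at -1.53 ± 0.64 and -2.23 ± 0.45, and in KYSE150, at -1.90 ± 0.35 and -2.09 ± 0.61 (SD, n = 2 each), and with BRDT-OE it went from -2.48 ± 0.19 to -2.92 ± 0.07 (SD, n = 3 each), with separate groups. In KYSE180 with siTP63 the higher ratio of PSMB9 over PSMB6 goes with lower PSMB5 and PSMB6, not with a called rise of PSMB8 or PSMB9, whereas in TE6 the immunoproteasome genes themselves rose. Controls of the same line also differed between experiments. PSMB8 over PSMB5 was -4.01 with siCont and -2.90 with the vector in KYSE150. In the KYSE180 controls it was -2.91 in the BRDT experiment and -3.91 in the TP63 experiment. PSMB9 over PSMB6 was -5.14 and -3.98 in these KYSE150 controls and -3.41 and -4.07 in these KYSE180 controls. The ratios should thus be read within experiments.

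**Figure D4:**
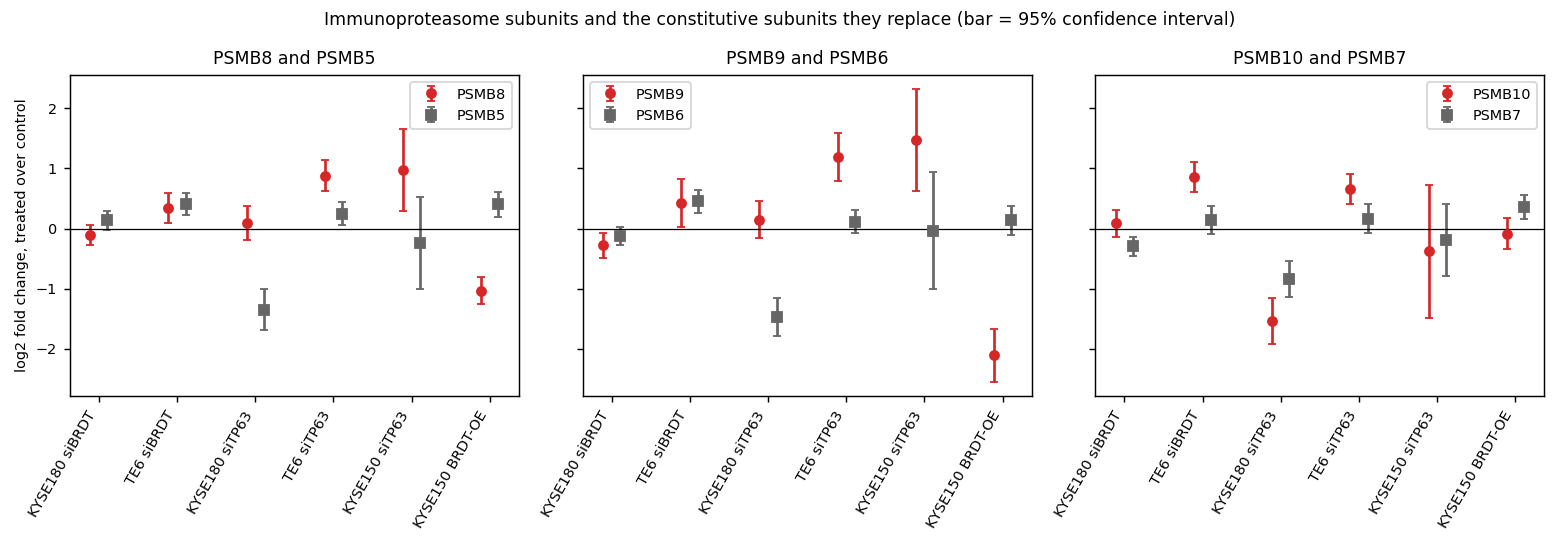
Log2 fold change (vertical axis, treated over control) of the immunoproteasome subunits PSMB8, PSMB9 and PSMB10 (red circles) and of PSMB5, PSMB6 and PSMB7, which they replace (grey squares), in the 6 comparisons, with 95% confidence intervals from limma. PSMB8 and PSMB9 part from their counterparts with BRDT-OE, where PSMB9 is at -2.10 and PSMB6 at 0.14, and with siTP63 in KYSE180, where the grey squares are low.

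Interferon-response genes were set beside the 9 genes with a list of 30, of which 19 to 28 were tested. With siBRDT in TE6, 23 rose and 1 fell of 28 (median 1.64), and with siTP63 23 rose and none fell of 28 in KYSE180 (median 1.74) and 19 rose and 1 fell of 28 in TE6 (median 1.26). BRDT-OE lowered 15 of 24 and raised none (median -1.04). Without siBRDT replicate 1, 24 rose and 1 fell of 27 for siBRDT in TE6 (median 1.60). In KYSE180 with siBRDT 4 rose and 3 fell of 28 (median 0.026), while 3 of the 9 class I genes fell. siTP63 in KYSE150 gave no calls among 19, with a median of 0.91. Some listed genes entered a test only through the group in which they were high, so these counts describe the genes tested. The summed level of the list also differed between controls of the same line. In KYSE150 it was 318 to 352 RPM with siCont and 763 to 953 with the vector. With BRDT-OE it was 455 to 476. In the KYSE180 controls it was 2146 to 2293 in the BRDT experiment and 1245 to 1325 in the TP63 experiment.

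ISG15, a ubiquitin-like effector of the interferon response, rose by 4.43 with siBRDT in TE6 and by 2.95 with siTP63 there, where B2M rose by 0.50 and 0.64. The part of the interferon response in the class I values was not tested.

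**Figure D5:**
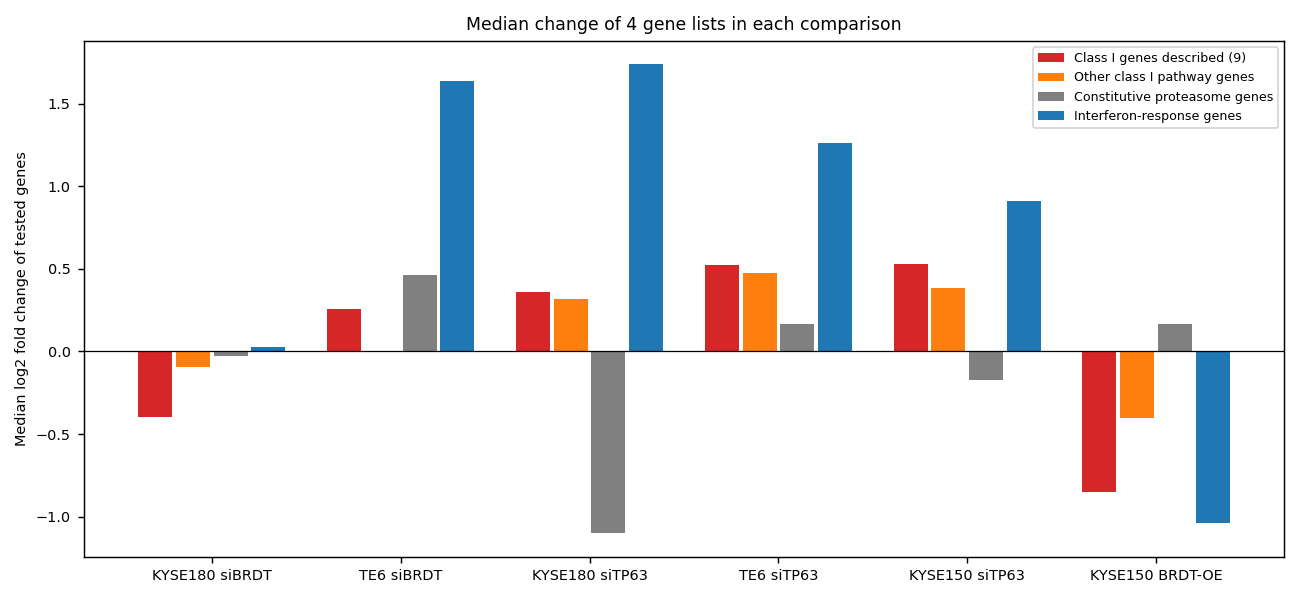
Median log2 fold change (vertical axis) of the tested genes in 4 lists, drawn as bars from 0, in the 6 comparisons: the 9 class I genes, 20 other pathway genes, 14 constitutive proteasome genes and the interferon-response genes. With siBRDT in TE6 the interferon-response median is 1.64 and that of the 9 genes 0.26, and with siTP63 in KYSE180 the constitutive proteasome median is -1.10.

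MHC class II genes, which professional antigen-presenting cells use, were near the limit of these libraries. Of 12 listed, 1 to 3 were tested in a comparison, and their summed level was 1.38 to 9.24 RPM. HLA-DOB, the most often tested, rose in TE6 with siBRDT (0.99) and siTP63 (1.07), from a control mean of 23.1. CIITA, the class II transactivator, was at 0 reads in every library of 6 groups. Of the leukocyte markers, ITGAM had group means of 6.23 ± 0.0930 and 16.4 ± 2.62 in the control and siTP63 libraries of KYSE180 and of 28.3 ± 9.98 and 3.19 ± 3.35 in the vector and BRDT-OE libraries. It passed the filter on low values only through the group in which it was high, so no change is read from it. PTPRC, which marks all leukocytes, was at 0 in every library of 6 groups. Squamous markers fell in 10 of 12 with siBRDT and 10 of 12 with siTP63 in KYSE180, and in 6 and 11 of 12 in TE6. Of all tested genes, 15.8%, 25.7%, 18.1% and 20.6% fell, in the same order. TP63 is on the marker list and is the target of siTP63, so its fall with siTP63 was set by the treatment. With BRDT-OE 3 rose and 1 fell of 11, where 10.5% of all tested genes rose and 16% fell. The part of the squamous markers in the class I values was not tested.

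Finally, likeness was described over all 26 libraries, on log2 values minus the control mean of the library's own experiment. TAPBP followed the mean of the other 8 genes most closely (Pearson r = 0.93), then PSMB8 (0.91), HLA-C (0.90), PSMB9 (0.89), B2M (0.89), HLA-B (0.87), TAP1 (0.81) and HLA-E (0.80). TAP2 was the exception, at -0.68. The closest pairs were PSMB8 with PSMB9 (0.98), HLA-B with B2M (0.96) and HLA-B with HLA-C (0.94), while HLA-E was closer to PSMB9 (0.86) and PSMB8 (0.82) than to HLA-C (0.72), B2M (0.65) or HLA-B (0.64). Outside the 9, among 11328 genes tested in every experiment, those most like their mean were SLC22A18 (0.977), ING4 (0.973), BBC3 (0.970), HLA-F (0.964), TMC6 (0.960), TCEA2 (0.959) and TLCD2 (0.957). These are descriptions over libraries that share experiments, and the TE6 libraries share their controls.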

How the data were processed

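mRNA-seq libraries were made with a TruSeq RNA V2 kit, which does not mark strand. Per the study's methods and processing notes, the authors aligned reads to hg38 with STAR 2.6.0, counted them with HTSeq 0.11.2 and normalised with DESeq2 1.24.0. Annotation and counting options were not given in the sources used here. The deposited values are a normalised signal, the reads of each gene over a library's size factor, set within each of the 5 tables. Whole reads were recovered for 100% of values (tolerance 0.001 reads), giving 7582089 to 19372441 reads per library. Floors cover counting error only, since reads carry no molecular identifiers. The confidence intervals printed with log2 fold changes are from limma and rest on the spread between libraries.

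Groups were compared within tables by limma 3.58.1 (R 4.3.3; lmFit, eBayes with trend) on log2(value + 1), over genes with a mean of at least 10, with Benjamini-Hochberg adjustment over all genes tested. This scale understates changes of low genes. The 3 TE6 groups shared 1 fit, and no replicate block was used. Contrasts of fold changes had no fold limit. Levels per length used the canonical transcript in GENCODE 44. The fits were also run on simulated data, and how well known changes were recovered there is not given here. Alternatives were a pseudocount of 0.1, no filter, equal upper quartiles (over genes above 0 in every library), a replicate block, edgeR 4.0.16 and DESeq2 1.42.0 on recovered reads, no fold limit, TE6 fits of 2 groups and leaving out each library. A crossed pairing and list counts without TE6 siBRDT replicate 1 were added after seeing the data. Genes named were all 9 members, a set of listed pathway genes with up to 3 further called ones per comparison, PSMB5 to PSMB7, at most 3 per other list, and the 8 genes most like the members, of which 1 is not reported here. The members and lists were chosen with earlier results of these data known. Promoters are from RefSeq. Figures were drawn with matplotlib 3.10.9.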

Additional observations from a re-analysis of the deposited data

Results flagged for a closer look

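Between TE6 and KYSE180, knockdown of the same target gave changes that differed by a limma contrast of the 2 fold changes. Whether both lines received the same siRNA sequence was not given. For siBRDT, the TE6 change exceeded the KYSE180 change by 1.47 on the log2 scale for B2M (0.50 against -0.97), 1.20 for HLA-B (0.16 against -1.03) and 0.988 for HLA-C (0.26 against -0.73). The corresponding differences were 0.697 for PSMB9 (0.42 against -0.28) and 0.453 for PSMB8 (0.34 against -0.11). For siTP63, the TE6 change exceeded that in KYSE180 by 1.05 for PSMB9, 0.784 for PSMB8 and 0.451 for HLA-C, and TAP1 differed by -0.58, higher in KYSE180. These lines also differed for 41.9% (siBRDT) and 55% (siTP63) of all tested genes. Without TE6 siBRDT replicate 1, in which 5490 genes were at 0 against 8916 to 10027 in the other TE6 libraries, the siBRDT differences were 1.43 for B2M, 1.16 for HLA-B, 0.97 for HLA-C, 0.41 for PSMB9 (adjusted p = 0.071, limma) and 0.37 for PSMB8. With 2 or 3 libraries a group, no test of single values as outliers was made.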

How the results depend on the processing

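Of 197 recomputed counts, 176 stayed within 1.5 times the reported count, among them counts of 0 that stayed at 0. Of 1080 values of single genes, 992 kept their direction and their side of the threshold. Of the others, 33 lost a call, 31 gained one and 24 changed sign. With no fold limit, 6 of the 9 genes passed as lower for siBRDT in KYSE180 (29.8% of all genes) and 4 as higher in TE6 (21.9%), 1 as lower for siTP63 in KYSE180 (31%) and 1 as higher for BRDT-OE (26.1%). For siTP63 in KYSE150, DESeq2 called 1 gene up (1.64% of all). In the contrast of siTP63 between TE6 and KYSE180, HLA-E and TAPBP changed sign with equal upper quartiles (-0.081 and -0.10) and with edgeR (-0.067 and -0.073). The cause was not tested.

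Leaving out 1 library gave 0 to 2 rises for siBRDT in TE6, 1 to 4 rises and 0 to 1 falls for siTP63 in KYSE180, 0 to 2 rises for siTP63 in KYSE150, 4 to 7 differences between siTP63 and siBRDT in TE6, 4 to 7 between the lines for siBRDT and 2 to 4 for siTP63. For siBRDT in KYSE180 (3 falls) the count stayed as reported, with 15% to 16% of all tested genes called down. The same held for BRDT-OE (8 falls), with 14.1% to 16.5% called down. For siTP63 in TE6 the log2 fold changes of the 5 called genes stayed between 0.51 (TAPBP) and 1.26 (PSMB9). Where an arm is left with 1 library, its spread is taken from the other group. Signs changed only in genes that were not called, with ranges of -0.016 to 0.051 (HLA-E) and -0.034 to 0.059 (TAP2) for siBRDT in KYSE180, -0.49 to 0.072 (TAP1) for siBRDT in TE6, and -0.070 to 0.091 (TAP2), -0.17 to 0.26 (HLA-E) and -0.057 to 0.54 (HLA-C) for siTP63 in KYSE150. In the contrasts they were -0.0096 to 0.099 (HLA-E, siTP63 minus siBRDT), -0.076 to 0.48 (TAP1, siBRDT between lines), and -0.046 to 0.12 (HLA-E), -0.11 to 0.14 (TAPBP) and -0.28 to 0.15 (B2M) for siTP63 between lines.

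Whether replicate numbers pair the libraries could not be settled. Correlations of same-numbered deviations were 0.0047 to 0.18 for siBRDT in KYSE180, 0.015 to 0.098 for BRDT-OE, and -0.095, 0.047 and 0.011 for siBRDT in TE6, siTP63 in KYSE180 and siTP63 in TE6. As a hint from the data, 4 of 6 libraries correlated best with their own number for siBRDT in KYSE180 and 5 of 6 for BRDT-OE. With the replicate block, 1 gene was called up for siTP63 in KYSE150 and HLA-B no longer differed between siTP63 and siBRDT in TE6 (0.25, adjusted p = 0.064), and no other call among the 9 genes changed. For siTP63 in KYSE150 the correlation was -0.70, and a crossed pairing, chosen after seeing the data, called 5 of the 9 genes up and 1626 up and 1774 down of all. The lowest value of the 9 genes rested on 50 reads, and whether depth or the number of libraries limits small changes was not tested. The gene lists were also counted without TE6 siBRDT replicate 1, chosen after seeing the data.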
